A study of Mus musculus with 6 samples.

Results

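The Notch pathway was examined in 4T1.2 primary mammary tumours through 10 genes, 4 receptors (Notch1, Notch2, Notch3 and Notch4), 2 ligands (Jag1 and Dll4) and 4 target genes (Hes1, Hey1, Hey2 and Heyl). The members were the 20 probe sets whose gene symbol in the authors' deposited table is exactly one of these names, out of 45037 probe sets that are not array controls, and the rule used no measured value. Each of 3 genes had 1 probe set, 4 genes had 2 and 3 genes had 3. Total RNA of 6 whole tumours was measured, 1 Affymetrix mouse array per tumour. 4T1.2 is a metastatic mouse mammary carcinoma line, and 100000 cells were placed in the inguinal mammary fat pad of female Balb/c mice aged 6 to 8 weeks; tumours were taken at about 0.3 g. The 3 control tumours, numbered 1 to 3, grew from cells with pBabepuro alone, a retroviral vector, and the 3 Bmp4 tumours from cells with murine Bmp4 in that vector. The labels do not say whether the cells are clones or pools, nor whether the tumours are from separate mice, so the spread behind every p-value is that between these tumours and may be technical.

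Notch receptors are single-pass membrane proteins that a Jagged or Delta-like ligand on a neighbouring cell activates. Cleavage by an ADAM protease and then by gamma-secretase frees the intracellular domain, which joins the DNA-binding protein RBPJ and switches on Hes and Hey genes, a family of basic helix-loop-helix repressors. In blood vessels Notch4 is known as an endothelial receptor, Notch3 as a receptor of pericytes and smooth muscle cells, and Dll4 as a ligand of sprouting endothelium. Hey1 is also induced by BMP signalling through SMAD proteins, so the comparison asks whether enforced Bmp4 goes with other levels of the pathway's genes in whole tumours. In such tissue, fewer cells of a type and less RNA per cell cannot be told apart.

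The array of control tumour 1 stood apart and every comparison is given with and without it. Across probe sets its correlation with each other array was 0.655 to 0.719, while among the other 5 it was 0.959 to 0.993, and its interquartile range was 2.25 against 3.35 to 3.77. For Actb, the 3' control probe set exceeded the 5' one, a sign of shortened RNA, by 2.62 to 5.64 in control and 1.44 to 2.33 in Bmp4 tumours. For Gapdh it did so by 2.46, 5.31 and 3.93 in controls and by 1.62 to 3.13 with Bmp4. RNA quality and the groups therefore cannot be told apart for any difference below, with or without control tumour 1. Of the epithelial markers, the keratins Krt8 (12.1 to 13.03) and Krt18 (9.82 to 12.07) were bright on all arrays. Others were dim, such as Krt14, Krt19 and Cldn7 with means of 5.51, 5.52 and 5.01, so the markers check the labelled tissue only in part. The Bmp4 transcript itself, by its 1 probe set, was 6.48, 5.93 and 4.99 in control tumours and 5.04, 4.94 and 5.51 in Bmp4 tumours. No source used here says whether the vector's insert holds its target, so it checks no label.

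None of the 20 probe sets of the Notch genes passed the threshold in either setting. Values are log2 expression after RMA, differences are Bmp4 minus control on that scale, and a call is a limma p adjusted by the Benjamini-Hochberg method over all 45037 probe sets that is under 0.05. With all 6 arrays 0% of all probe sets were called, and 2563 (5.69%) had an unadjusted p under 0.05, against 0 of 20 among the Notch genes. Without control tumour 1, 0.00888% of all probe sets were called, and at an unadjusted p under 0.05 the Notch genes had 3 of 20 probe sets lower (15%) and 0 higher, beside 5.72% lower and 7.7% higher over all probe sets. The 3 were Notch4 1449146_at, Notch3 1421965_s_at and Heyl 1438886_at. With all 6 arrays the groups did not overlap, with Bmp4 lower, in 3 of 20 probe sets (15%) beside 14.9% of all, and with Bmp4 higher in 0 beside 10.6%. When control tumour 1 was left out this held for 6 of 20 (30%) beside 19% of all, and the opposite order for 2 of 20 (10%) beside 14%. The median difference of the 20 probe sets was -0.24 with all 6 arrays, beside -0.20 for all probe sets, and -0.11 without control tumour 1, beside -0.06. With control tumour 3 as the only control, 10 of 20 had all 3 Bmp4 tumours below it (50%), beside 30.5% of all probe sets, and 4 of 20 had them above it (20%), beside 26.7%.

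**Figure D1:**
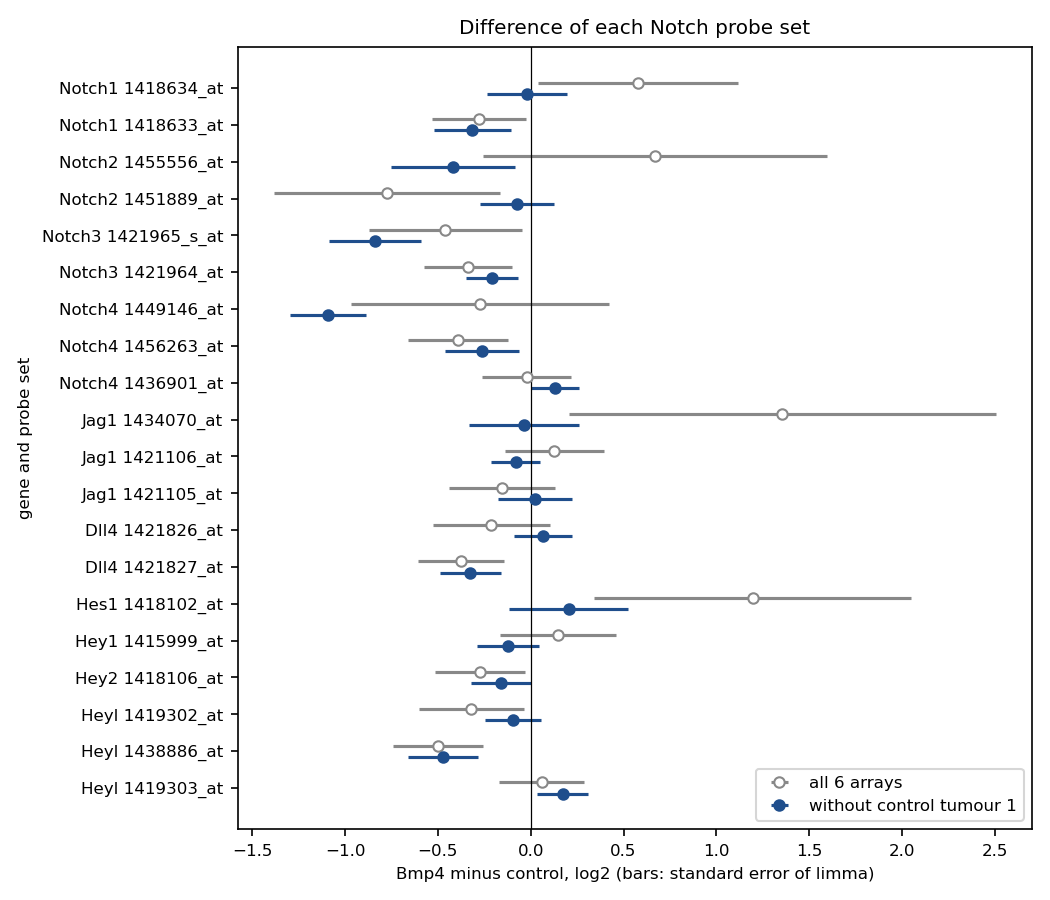
Difference between Bmp4 and control tumours (horizontal axis, log2, Bmp4 minus control) for each of the 20 probe sets, with the standard error of limma as bars; open grey points use all 6 arrays and filled blue points leave out control tumour 1. Without control tumour 1, Notch4 1449146_at (-1.09) and Notch3 1421965_s_at (-0.84) lie farthest from 0, and the other probe sets lie between -0.47 and 0.20.

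The vascular receptor Notch4 showed the largest difference of the 20 probe sets once control tumour 1 was left out. Its probe set 1449146_at was 5.16, 7.74 and 7.47 in the control tumours, in order of their numbers here and below, and 6.52, 6.79 and 6.24 in the Bmp4 tumours. All 3 Bmp4 tumours lay below control tumours 2 and 3 and above control tumour 1, so the groups overlap through that array alone. With all 6 arrays the means were 6.79 ± 1.42 (SD, n = 3) and 6.52 ± 0.28 (SD, n = 3), a difference of -0.27 ± 0.70 (SE; limma adjusted p = 0.793). The control mean without control tumour 1 was 7.61 ± 0.19 (SD, n = 2) and the difference was -1.09 ± 0.20 (SE; 95% interval -1.59 to -0.59), which is 2.13-fold lower, with an unadjusted limma p of 0.0016 (rank 271 of 45037) and an adjusted p of 0.269. Against control tumour 3 alone it was -0.96. In the authors' deposited table its ratio is 0.505, with p = 0.00415 and an adjusted p of 0.523. That ratio lies nearer the one without control tumour 1 (0.470) than that of all 6 arrays (0.827), and it is no separate evidence.

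The other Notch4 probe sets did not show that difference. Both were under the median of the array on all 6 arrays, and 1436901_at lay below the 25th percentile on 3 of them. Probe set 1456263_at ranged from 4.48 to 5.14 in controls and from 4.32 to 4.61 with Bmp4, a difference of -0.39 and, without control tumour 1, of -0.26. Probe set 1436901_at differed by -0.02 and by 0.13.

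Notch3, the receptor of mural cells, was lower in mean by both of its probe sets and in both settings. Probe set 1421965_s_at, whose suffix marks probes that can match several transcripts, was 7.19, 8.64 and 8.02 in control tumours and 7.19, 7.72 and 7.57 in Bmp4 tumours. Control tumours 2 and 3 lay above all 3 Bmp4 tumours, while control tumour 1 lay among them. The difference was -0.46 ± 0.41 (SE; limma adjusted p = 0.513). Leaving out control tumour 1 gave -0.84 ± 0.25 (SE; 95% interval -1.45 to -0.23), which is 1.79-fold lower, with an unadjusted limma p of 0.0146 and an adjusted p of 0.322. The dim probe set 1421964_at, below the median on all 6 arrays, was 5.73, 5.23 and 5.44 in control tumours and 5.12, 5.16 and 5.12 in Bmp4 tumours. These values do not overlap, but the differences were small, -0.34 ± 0.24 (SE) and -0.21 ± 0.14 (SE). In the authors' deposited table the ratios are 0.56 (p = 0.0606) and 0.736 (p = 0.0132), each with an adjusted p of 0.523.

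Because these 2 receptors had the lowest differences without control tumour 1, the 250 bases before their start sites are shown, with those of Hey2 as a Hes/Hey gene for comparison. The sequences are from RefSeq on GRCm38.p6, where 7 of the 10 genes were matched (all but Hes1, Hey1 and Heyl), and are written 5′ to 3′ in the direction of the gene. Capitals mark matches, on either strand, to TGGGAA (the core that RBPJ binds), CACGTG and CACNAG (the E-box and N-box that Hes and Hey proteins bind) and GGCGCC (a GC-rich SMAD element).
Notch3, chr17:32166891-32167140, minus strand: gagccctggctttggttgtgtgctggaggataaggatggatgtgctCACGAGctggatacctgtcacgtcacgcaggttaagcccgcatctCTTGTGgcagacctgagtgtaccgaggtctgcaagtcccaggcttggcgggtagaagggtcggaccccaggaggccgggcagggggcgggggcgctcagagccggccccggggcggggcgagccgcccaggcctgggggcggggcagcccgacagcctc
Notch4, chr17:34564045-34564294, plus strand: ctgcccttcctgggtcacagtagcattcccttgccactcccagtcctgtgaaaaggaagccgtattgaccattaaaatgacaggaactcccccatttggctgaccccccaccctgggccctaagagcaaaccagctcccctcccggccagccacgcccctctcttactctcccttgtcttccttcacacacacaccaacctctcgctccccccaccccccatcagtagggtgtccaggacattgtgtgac
Hey2, chr10:30842784-30843033, minus strand: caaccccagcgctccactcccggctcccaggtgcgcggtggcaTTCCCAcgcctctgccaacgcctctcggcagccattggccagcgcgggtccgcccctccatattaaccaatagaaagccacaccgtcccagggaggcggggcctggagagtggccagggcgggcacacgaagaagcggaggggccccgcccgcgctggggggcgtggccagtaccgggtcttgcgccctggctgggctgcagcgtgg

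The Notch3 window held 2 N-box matches, starting 204 and 159 bases before the start, and the Hey2 window held 1 RBPJ core on the opposite strand, 207 bases before it. No match overlapped another, and the Notch4 window held none, which says only that these letters are not in that window. Of 32851 promoter windows of the same length, 36.7% held CACNAG, 21.6% TGGGAA, 9.59% GGCGCC and 6.02% CACGTG, so each of these matches is common. None of the 3 windows held GGCGCC.

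The receptors Notch1 and Notch2, which are expressed in many cell types, overlapped between the groups by the probe sets with the higher mean. Notch1 1418634_at was 9.62, 11.12 and 11.71 in control tumours and 11.24, 11.57 and 11.37 in Bmp4 tumours. Apart from control tumour 1, all values fell within the range of control tumours 2 and 3. The difference was 0.58 ± 0.54 (SE), and without control tumour 1 it was -0.02 ± 0.22 (SE; 95% interval -0.55 to 0.51). The other Notch1 probe set, 1418633_at, was 8.33, 8.24 and 8.65 against 7.95, 8.40 and 8.05, and differed by -0.28 and -0.32 in the 2 settings.

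For Notch2 the sign of the difference depended on which control tumours were used. Its probe set 1455556_at was 7.66, 11.45 and 10.40 in control tumours and 10.22, 10.52 and 10.78 in Bmp4 tumours. The difference was 0.67 ± 0.93 (SE), and without control tumour 1 it was -0.42 ± 0.33 (SE). Against control tumour 3 alone it was 0.11. Probe set 1451889_at, below the median on 5 arrays, was high in control tumour 1, at 6.89 there and 4.42 to 4.95 on the other 5. It differed by -0.78 and, without control tumour 1, by -0.07. Over the 10 Notch gene probe sets with a mean above the median of all probe sets, control tumour 1 was the lowest array in 6 and the highest in 2. Over the 10 below the median it was the lowest in 1 and the highest in 8. Over all 20 it was the lowest in 35% and the highest in 50%, near the 31% and 52.8% of all probe sets.

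**Figure D2:**
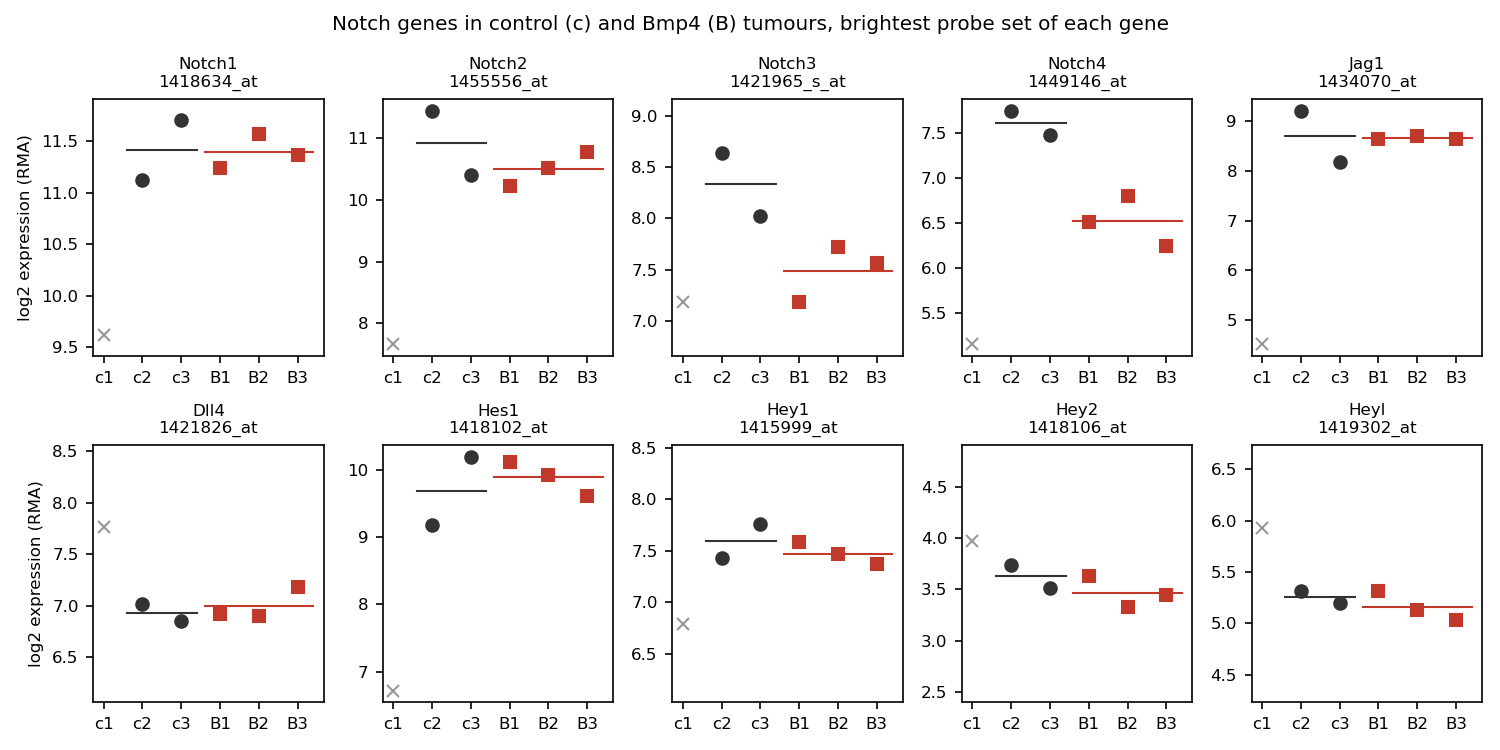
Log2 expression (vertical axis, RMA) of the brightest probe set of each gene in control tumours 1 to 3 (c1 as a grey cross, c2 and c3 as black circles) and Bmp4 tumours 1 to 3 (B1 to B3, red squares). Lines are the means of control tumours 2 and 3 and of the Bmp4 tumours, and each panel has its own axis range. Notch4 and Notch3 show all Bmp4 tumours below control tumours 2 and 3, while Hes1, Hey1, Notch1, Notch2 and Jag1 do not.

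Of the ligands, Jag1, the Jagged ligand of many epithelial and vascular cells, was near level apart from control tumour 1. Its probe set 1434070_at was 4.52, 9.21 and 8.19 in control tumours and 8.64, 8.71 and 8.63 in Bmp4 tumours. The Bmp4 tumours lay between control tumours 2 and 3, and control tumour 1 lay below the 25th percentile of its array. The difference was 1.36 ± 1.15 (SE), and without control tumour 1 it was -0.04 ± 0.30 (SE; 95% interval -0.76 to 0.68). Probe sets 1421106_at and 1421105_at, of which the second lay below the median on all arrays, differed without control tumour 1 by -0.08 and 0.02. All 3 Bmp4 values of 1421106_at (5.69, 5.83 and 5.75) lay below those of control tumours 2 and 3 (5.84 in both), by a small margin.

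Dll4, the endothelial Delta-like ligand, gave different results by its 2 probe sets, both above the median of all probe sets on every array. Probe set 1421827_at was 7.10, 6.97 and 6.92 in control tumours and 6.39, 6.66 and 6.79 in Bmp4 tumours. All Bmp4 tumours lay below all control tumours, control tumour 1 included. The difference was -0.38 ± 0.23 (SE; limma adjusted p = 0.499), or -0.33 ± 0.17 (SE; adjusted p = 0.426) without control tumour 1. Probe set 1421826_at was 7.77, 7.02 and 6.85 against 6.91, 6.90 and 7.18, with differences of -0.21 and 0.07, and its groups overlapped.

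Among the target genes, Hey1, which both Notch and BMP signalling are known to induce, showed no difference beyond the spread between tumours. Its 1 probe set, 1415999_at, was 6.79, 7.43 and 7.76 in control tumours and 7.59, 7.47 and 7.37 in Bmp4 tumours. Bmp4 tumours 1 and 2 lay within the range of control tumours 2 and 3, and Bmp4 tumour 3 just below it. The difference was 0.15 ± 0.31 (SE; 95% interval -0.61 to 0.90; limma adjusted p = 0.754). When control tumour 1 was left out it was -0.12 ± 0.16 (SE; 95% interval -0.52 to 0.28; adjusted p = 0.736).

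Of 10 BMP target genes on the same arrays, 7 had a higher mean in the Bmp4 tumours and 3 a lower one in both settings, each by its probe set of highest mean. Smad6, an inhibitory SMAD, was 5.08, 5.78 and 5.91 in control tumours and 8.36, 7.47 and 8.29 in Bmp4 tumours. Its groups did not overlap, and the difference without control tumour 1 was 2.19 (limma adjusted p = 0.216). Id1, an inhibitor of helix-loop-helix factors, differed by 1.53 and its relative Id2 by 0.87 (1435176_a_at), each with a limma adjusted p of 0.270. Over the 14 probe sets of 10 BMP target genes, 8 did not overlap with Bmp4 higher, in either setting (beside 10.6% and 14% of all probe sets), and 0 with Bmp4 lower. The genes with a lower mean were Msx1 (-0.48 without control tumour 1), Msx2 (-0.13) and Id4 (-0.10), and their groups overlapped. The probe sets of Id2 disagreed, with -0.03 for 1453596_at. None passed the threshold, and the difference between Hey1 and these genes was not tested.

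Hes1, the Hes repressor that Notch induces in many tissues, was 6.72, 9.18 and 10.19 in control tumours and 10.13, 9.93 and 9.62 in Bmp4 tumours. The Bmp4 tumours lay between control tumours 2 and 3. The difference was 1.2 ± 0.86 (SE; limma adjusted p = 0.499), or, when control tumour 1 was left out, 0.20 ± 0.32 (SE; 95% interval -0.58 to 0.98; adjusted p = 0.777).

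Hey2, which acts in heart and artery development, lay below the 25th percentile of its array in all 6 tumours, at 3.33 to 3.97, so no difference is read from it. Heyl, a Notch3 target in mural cells, lay below the median on all arrays by its 3 probe sets. Probe set 1438886_at was 5.06, 5.15 and 4.80 in control tumours and 4.73, 4.45 and 4.33 in Bmp4 tumours. All Bmp4 tumours lay below all control tumours, control tumour 1 included. The difference was -0.50 ± 0.24 (SE; limma adjusted p = 0.499), and -0.47 ± 0.19 (SE; unadjusted p = 0.0457, adjusted p = 0.368) without control tumour 1, which is 1.39-fold lower. Probe set 1419302_at was 5.93, 5.31 and 5.20 against 5.32, 5.13 and 5.04 and differed by -0.32 and -0.10. Probe set 1419303_at, below the 25th percentile on all arrays, is not read.

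Vascular marker lists, like Notch4 and Notch3, were lower in all 3 Bmp4 tumours than in control tumours 2 and 3. Over 15 blood endothelial markers, the mean log2 level was 6.34, 7.27 and 7.31 in the control group and 6.77 to 7.02 in the Bmp4 group. Over 12 pericyte and smooth muscle markers it was 7.03, 7.67 and 7.67 against 7.47 to 7.48. In both lists the Bmp4 tumours lay below control tumours 2 and 3 and above control tumour 1, as for Notch4. The mean of 9 epithelial markers (7.14, 7.61 and 7.62 against 7.27 to 7.49) had the same order, so this order was not particular to vascular markers. Their part in the differences of the Notch genes was not tested.

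Without control tumour 1, 8 of 21 endothelial probe sets and 10 of 23 pericyte and smooth muscle probe sets did not overlap, with Bmp4 lower, beside 19% of all probe sets, and 0 and 2 with Bmp4 higher, beside 14%. At an unadjusted p under 0.05, 6 in each list were lower, beside 5.72% of all probe sets. Higher by that measure were 0 and 1, beside 7.7%, and none passed the threshold. The claudin Cldn5 differed by -0.91 and the angiopoietin receptor Tek by -0.53, while 7 of 21 probe sets were positive, among them Eng with 0.41 and Pecam1 with 0.18. Among mural markers, Pdgfrb, the PDGF receptor of pericytes, differed by -0.89, Rgs5 by -0.91 and the channel subunit Abcc9 by -0.99, each by its probe set of highest mean; the second Pdgfrb probe set, 1417148_at, had 0.04. Other mural markers went the opposite way, with 0.77 for Mcam, 0.59 for Tagln and 0.47 for Myh11 (1448962_at). On all 6 arrays the differences of Cldn5, Tek, Pdgfrb, Rgs5 and Abcc9 were -0.48, 0.09, -0.06, 0.12 and 0.15, so for Tek, Rgs5 and Abcc9 the sign rested on control tumour 1. Set against control tumour 3 alone, 10 of 21 and 12 of 23 probe sets were lower in all Bmp4 tumours, beside 30.5% of all. In the same comparison 4 and 3 were higher in all Bmp4 tumours, beside 26.7%. The list medians were then -0.17 and -0.20, and -0.33 and -0.24 without control tumour 1. By the probe set of highest mean, no endothelial marker lay below the 25th percentile on at least 1 array, and at most 3 of 15 did on another. For mural markers it was at most 1 of 12. Of the other mural probe sets, Acta2 1456658_at and 1444105_at and Abcc9 1420408_a_at lay below it on all 6 arrays. These were among the 10 that did not overlap. By 1 probe set per gene and without control tumour 1, 8 of 15 endothelial and 5 of 12 mural genes did not overlap with Bmp4 lower. With Bmp4 higher it was 0 and 2.

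**Figure D3:**
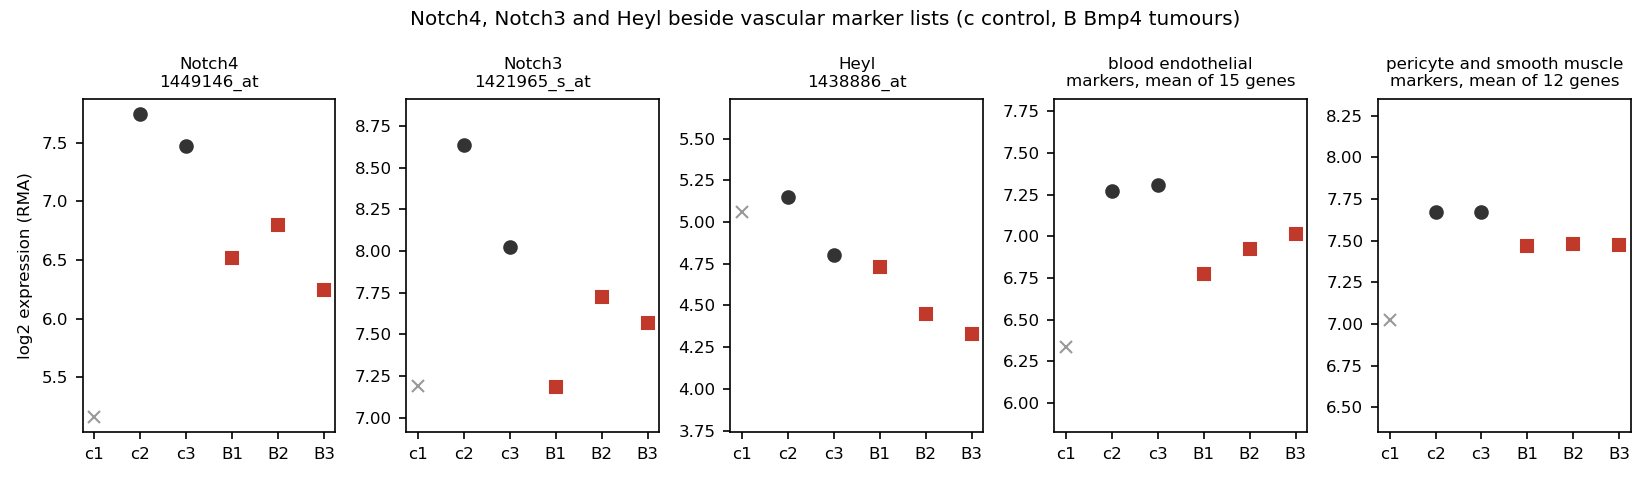
Log2 expression (vertical axis, RMA) in control tumours (c1 grey cross, c2 and c3 black circles) and Bmp4 tumours (B1 to B3, red squares) for Notch4 1449146_at, Notch3 1421965_s_at and Heyl 1438886_at, beside the mean of 15 endothelial and of 12 pericyte and smooth muscle marker genes; each panel has its own range. All 5 panels have the 3 Bmp4 tumours below control tumours 2 and 3, and Heyl alone has them below control tumour 1 too.

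Levels of other cell type markers separated the groups for T cells, while those of macrophages and fibroblasts overlapped, and none passed the threshold. T cell markers averaged 6.64, 6.42 and 7.44 in the control group and 8.19 to 8.34 in the Bmp4 group, and macrophage markers 8.71, 8.72 and 10.71 against 10.43 to 11.31. In either setting 10 of 20 T cell probe sets did not overlap, with Bmp4 higher, beside 10.6% and 14% of all probe sets. Cd4 1419696_at and Cd3e 1422105_at did overlap, with differences of 0.02 and 0.05 on all 6 arrays. Epithelial markers averaged 7.14, 7.61 and 7.62 against 7.27 to 7.49, and fibroblast markers 8.21, 10.71 and 10.18 against 10.26 to 10.52. The epithelial adhesion gene Cdh1, the lowest of its list, differed by -1.25 without control tumour 1, while 7 of 11 epithelial probe sets were positive (median 0.10), with 0.12 for Krt8 and 0.10 for Krt18. The part of these cell types in the Notch gene values was not tested.

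The gene patterns nearest to 3 members were sought by the root-mean-square difference of centred log2 values over the 6 arrays, among 19472 probe sets with 1 gene symbol and a mean above the median. For Notch4 they were Slc12a5 (0.125), Grb10 (0.155) and the pericyte marker Pdgfrb (0.157). For Hey1 they were Polr3e (0.0514), Rhbdd3 (0.0575) and Col5a1 (0.0581). For Heyl 1419302_at they were 1110008J03Rik (0.0248), 1110020P15Rik (0.0315) and Ankrd23 (0.0484). With 6 arrays and 1 that stands apart, such a distance is a description only.

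The rest of the pathway showed no call either. Of 73 further genes in 6 role lists, 63 were measured by 125 probe sets, and 0 passed the threshold in either setting. Leaving out control tumour 1, an unadjusted p under 0.05 was found for 14 that were higher and 8 that were lower (11.2% and 6.4%, beside 7.7% and 5.72% of all probe sets), with a median of -0.01. All 6 arrays gave 6 higher and 3 lower (4.8% and 2.4%, beside 3.89% and 1.81%).

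Without control tumour 1, an unadjusted p under 0.05 was found in the receptor cleavage genes for 5 of 21 probe sets, all higher. Over all probe sets, 7.7% were higher and 5.72% lower by that measure. The median difference of the 21 was 0.10, and 0.09 against control tumour 3 alone, beside -0.06 and -0.02 for all probe sets. Adam10, the protease that makes the first activating cut, was 4.56, 5.30 and 7.28 in control tumours and 8.30, 7.58 and 8.27 in Bmp4 tumours by probe set 1450105_at. The groups did not overlap. The difference was 2.34 with all 6 arrays, 1.76 ± 0.57 (SE; limma adjusted p = 0.326) without control tumour 1 and 0.78 against control tumour 3 alone. Its other 3 probe sets differed by 0.26, -0.07 and 0.07 without control tumour 1, so they disagreed in size and sign. Psen2, a catalytic subunit of gamma-secretase, differed by 0.74 by 1425869_a_at and by -0.34 by 1431542_at without control tumour 1, so its probe sets disagreed.

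Of 29 probe sets of genes that regulate receptors and ligands, 1 was higher and 7 were lower without control tumour 1, at an unadjusted p under 0.05. The shares of all probe sets were 7.7% higher and 5.72% lower. Egfl7, an endothelial secreted protein that binds Notch receptors, differed by -0.59 by 1451428_x_at and by -0.51, -0.49 and -0.31 by its other 3 probe sets. The first 3 of these values are among the 7 that were lower, so that count holds 1 gene 3 times. Neurl, a ubiquitin ligase for ligands that is named Neurl1a today, differed by -0.85 (limma adjusted p = 0.300) by 1456854_at and by -0.32 by 1422251_at, and the E3 ligase gene Dtx1 by 0.94. Against control tumour 3 alone 0 were higher and 8 lower by the same measure, beside 3.91% lower of all probe sets.

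Of 23 probe sets of other Hes and Notch target genes, 5 were higher and 0 lower without control tumour 1, at an unadjusted p under 0.05. This stands beside 7.7% higher and 5.72% lower over all probe sets. Gata3, a transcription factor of luminal mammary cells and T cells, was 5.64, 9.54 and 9.51 in control tumours and 10.19, 10.16 and 10.25 in Bmp4 tumours. It differed by 0.68 ± 0.13 (SE; limma adjusted p = 0.270) without control tumour 1. The mean of 9 T cell markers was also higher in all 3 Bmp4 tumours than in the control tumours, and Krt8 and Krt18 differed by 0.12 and 0.10. The part of T cells or luminal cells in the Gata3 values was not tested. The cyclin Ccnd1 differed by 0.62, 0.70 and 0.35 by its 3 probe sets. All 3 are among the 5 that were higher, so that count holds 1 gene 3 times. Hes7, a Hes repressor of the segmentation clock, differed by -0.19 and Ptcra, the pre-T cell receptor alpha chain, by -0.29.

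The remaining lists gave few differences without control tumour 1. At an unadjusted p under 0.05, 7.7% of all probe sets were higher and 5.72% lower. In the nuclear complex and its corepressors, 2 of 31 probe sets were higher and 0 lower by that measure. The acetyltransferase Crebbp differed by 0.41 by 1435224_at and by 0.22, 0.06 and -0.19 by its other probe sets. The corepressor Ctbp2 differed by 0.80 and 0.17 by its 2 probe sets, while Tle3 had -1.04 and Maml2, a coactivator of the RBPJ complex, -0.23. Tle3 was 6.87, 8.17 and 6.64 in Bmp4 tumours beside 8.24 and 8.30 in control tumours 2 and 3, so Bmp4 tumour 2 was near the controls. Maml2 lay below the 25th percentile on 5 of the 6 arrays. Among other ligands 1 of 14 was higher, Dlk2 by 0.66 (0.21 by its other probe set), while Mfap5 had 0.53 and -0.03 by its 2 probe sets, Cntn1 -0.37 and the Delta ligand Dll1 -0.84. Dll1 was 10.43 in control tumour 2 and 8.24 to 9.03 in the other 5 tumours, so its difference rested on 1 array. Among receptor glycosylation genes 1 of 7 was lower. Pofut1, which adds fucose to Notch, differed by -0.56 by 1456323_at and by 0.26 by 1443881_at, while the fringe enzyme Rfng had -0.35.

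**Figure D4:**
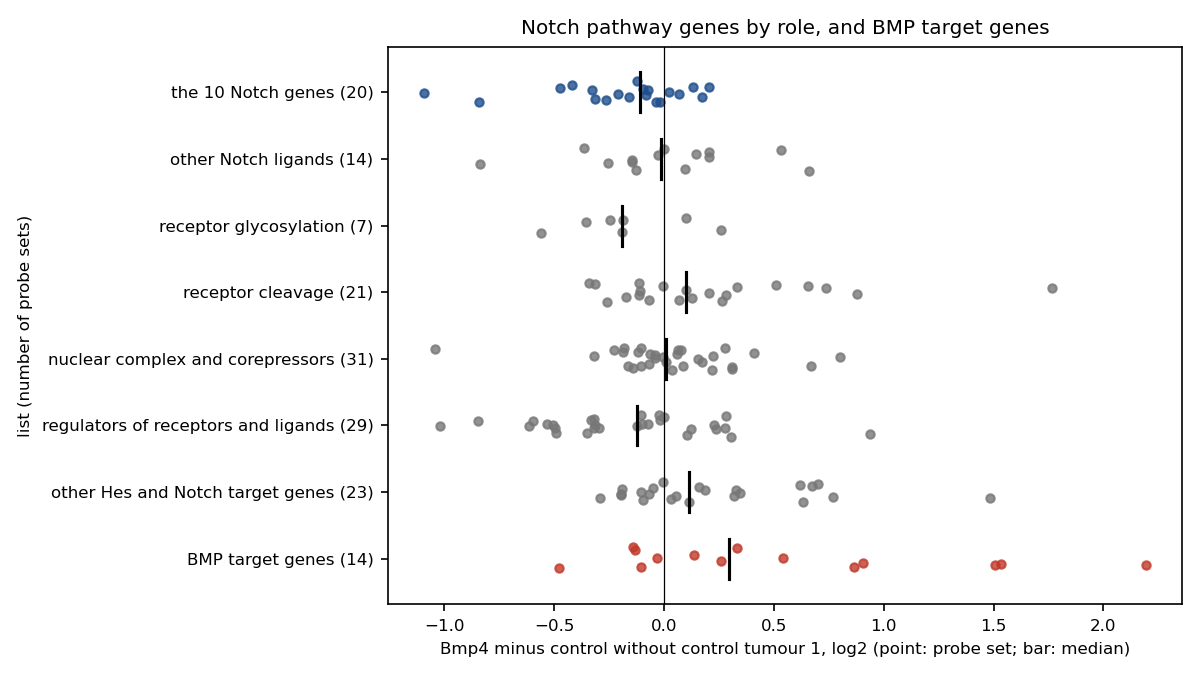
Difference between Bmp4 and control tumours without control tumour 1 (horizontal axis, log2, Bmp4 minus control) of each probe set of the 10 Notch genes (blue), of 6 lists of other pathway genes by role (grey) and of BMP target genes (red); black bars are medians and the number of probe sets is in brackets. The Notch genes have a median of -0.11 and their lowest point is Notch4 at -1.09, while the BMP target genes have a median of 0.30 and reach 2.19.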

How the data were processed

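The authors deposited log2 expression values per probe set for 6 arrays; RMA and Partek 6.6 are named in the submitters' processing notes, and no source used here says which arrays were normalized together. A second deposited table holds, per the file headers, the authors' own variance analysis: the ratio of Bmp4 over control with its p-value, raw and adjusted, and a signed fold change and other scores that were not used. Its gene symbols named the probe sets. As log2, its ratios for Jag1 1434070_at, Hes1, Notch3 1421965_s_at and Notch4 1449146_at are -0.06, 0.21, -0.84 and -0.99. These lie nearer the differences without control tumour 1 (-0.04, 0.20, -0.84 and -1.09) than those of all 6 arrays (1.36, 1.2, -0.46 and -0.27). That of Jag1 1421106_at, 0.21, lies nearer the value of all 6 arrays (0.13) than the other (-0.08). Which arrays the ratios rest on was not tested. In the deposited values the distribution of control tumour 1 is unlike that of the other arrays, with an interquartile range of 2.25 against 3.35 to 3.77. Its values may therefore not be comparable with theirs.

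The 45037 probe sets left after 64 control probe sets were fitted with limma 3.58.1 under R 4.3.3 (lmFit, then eBayes, on 2 groups, two-sided tests); p-values were adjusted by Benjamini-Hochberg over all of them, with no filter on dim probe sets. Intervals are limma's 95% intervals. With 3 tumours against 3 the smallest p of an exact permutation test (two-sided) is 0.1, and with 2 against 3 it is 0.2, so none is given, and the number of arrays limits the precision. The scripts were tested on simulated data. Groups and tumour numbers came from the labels. The members and lists were chosen with earlier results of these data known. All member probe sets are named; of each pathway list up to 2 probe sets per direction, and of each marker list up to 3, with the smallest p without control tumour 1, were eligible to be named. Further probe sets of a named gene, and marker genes that went against their list, are given where they bear on it, chosen after their values were seen. Lists were described by counts and medians. Symbols not found were Mfng, Maml3, Kat2a, Kat2b, Cir1, Ctbp1, Neurl1b, Dtx3, Bhlhe40 and Bhlhe41 in the pathway lists and Esam, Epcam and Plin1 in the marker lists, which were not analysed here; 1 further gene of the pathway lists is not reported here by name. Alternatives covered normalization, dim filters, probe set choice, variance models, array weights, the tumour number as a block, left-out tumours and the authors' p. Counts and medians of list probe sets against control tumour 3 alone were added after the data were seen.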

Additional observations from a re-analysis of the deposited data

How the results depend on the processing

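No call among the 20 Notch probe sets depended on the processing, apart from array weights with all 6 arrays, where 9 of 20 and 23167 of all probe sets passed; that fit put 85.8% of the weight on control tumour 2, and its estimate stopped before convergence. Over all probe sets, the count of 0 with all 6 arrays was 0 to 4 with 1 tumour left out. The count of 4 without control tumour 1 became 7 with arrays centred on the 75th percentile or 1 probe set per gene, 2 with array weights, 1 with a filter at the 50th percentile, 0 by the authors' deposited table, 0 with the replicate block, and 0 to 2 with a further tumour left out. Deviations of same-numbered tumours from their group means correlated at -0.13, -0.22 and -0.04. The control mean includes control tumour 1, which stood apart, so these values cannot settle whether the numbers pair the tumours. With the replicate block 0 probe sets passed in either setting. The cause of these changes was not tested.

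Without control tumour 1, Notch4 1449146_at stayed negative under all 17 alternatives (-1.23 to -0.41, the latter as the mean of its 3 probe sets; adjusted p 0.0858 to 0.827), Notch3 1421965_s_at under 17 (-1.15 to -0.52; 0.101 to 0.827) and Heyl 1438886_at under 14 (-0.65 to -0.30; 0.166 to 0.827). With all 6 arrays, leaving out 1 tumour in turn gave Notch4 -1.09 to 0.20.

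Differences of several probe sets changed sign, among them those of Jag1 1434070_at (1.36), Hes1 (1.2) and Notch2 1455556_at (0.67) with all 6 arrays. With all 6 arrays, the values under array weights were 0.01 (Dll4 1421826_at), -0.09 (Jag1 1421106_at), -0.55 (Jag1 1434070_at), -0.91 (Notch2 1455556_at) and 0.14 (Notch4 1436901_at). By the authors' deposited table, several of whose ratios lie nearer the setting without control tumour 1, they were 0.23 (Dll4 1421826_at), -0.08 (Hey1), -0.06 (Jag1 1434070_at), -0.17 (Notch2 1455556_at) and 0.20 (Notch4 1436901_at), as log2 of the ratio. Without control tumours 1 and 2 they were 0.15 (Dll4 1421826_at), -0.30 (Hes1), -0.29 (Hey1), 0.13 (Jag1 1421105_at), -0.08 (Jag1 1421106_at), -0.31 (Notch1 1418634_at), 0.05 (Notch2 1451889_at) and 0.11 (Notch4 1436901_at). Centring on the 75th percentile gave -0.16 (Hey1), -0.25 (Heyl 1419303_at) and -0.18 (Jag1 1421106_at), and on the median 0.03 (Jag1 1421105_at) and 0.16 (Notch4 1436901_at). Quantile normalization gave 0.15 (Jag1 1421105_at), -0.02 (Notch1 1418634_at) and 0.30 (Notch4 1436901_at), and the mean of probe sets -0.05 (Notch2). With 1 tumour left out the ranges were -0.39 to 0.07 (Dll4 1421826_at), -0.12 to 0.36 (Hey1), -0.03 to 0.17 (Heyl 1419303_at), -0.30 to 0.02 (Jag1 1421105_at), -0.08 to 0.23 (Jag1 1421106_at), -0.04 to 2.31 (Jag1 1434070_at), -0.02 to 1.02 (Notch1 1418634_at), -0.42 to 1.48 (Notch2 1455556_at) and -0.11 to 0.13 (Notch4 1436901_at).

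Without control tumour 1, signs changed with the 75th percentile at -0.05 (Dll4 1421826_at) and -0.09 (Jag1 1421105_at), with the mean of probe sets at -0.13 (Dll4), and with array weights at -0.01 (Jag1 1421105_at). By the authors' deposited table the values were -0.13 (Jag1 1421105_at), 0.21 (Jag1 1421106_at) and 0.19 (Notch1 1418634_at), with the median 0.03 (Jag1 1434070_at) and 0.05 (Notch1 1418634_at), and with quantile normalization 0.00 (Heyl 1419302_at) and 0.02 (Notch2 1451889_at). The replicate block gave 0.06 (Notch1 1418634_at). With a further tumour left out, where a lone control is assumed to vary like the Bmp4 group, the ranges were -0.02 to 0.15 (Dll4 1421826_at), -0.30 to 0.71 (Hes1), -0.29 to 0.04 (Hey1), -0.12 to 0.16 (Jag1 1421105_at), -0.55 to 0.47 (Jag1 1434070_at), -0.31 to 0.27 (Notch1 1418634_at), -0.20 to 0.07 (Notch2 1451889_at) and -0.94 to 0.11 (Notch2 1455556_at). Of 654 alternative values in all, 63 changed sign.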
